A study of Homo sapiens with 6 samples.

Results

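The alcohol dehydrogenase (ADH) genes of human chromosome 4 form a cluster of 7 related genes, ADH1A, ADH1B, ADH1C, ADH4, ADH5, ADH6 and ADH7. They were followed in RNA-seq libraries of PLC/PRF5 cells, a human hepatocellular carcinoma line, with and without knockdown of MTR4. The family was chosen by the measured rise of ADH1A, ADH1B and ADH1C in the same libraries, so the differences between the groups are given as a description without a test. All 7 members were found among the 60675 genes of the deposited count tables, by matching their symbols to Ensembl gene identifiers.

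MTR4 knockdown (MTR4 KD) and control were sequenced in 3 libraries each. The labels give the groups as control and MTR4 KD, and the series' design text calls the control cells wild. The study's description of its profiling experiment gives an inducible knockdown, with cells before and after doxycycline. Both groups were this 1 cell line, grown in DMEM with 10% fetal bovine serum, and the labels give no time after knockdown. Nothing in the labels says that the 3 libraries of a group came from separate cultures, so p-values measure the spread between these libraries, which may be technical. None of the 6 libraries is labelled as doxycycline-treated cells with a scramble shRNA. If doxycycline induced the knockdown in these libraries, effects of the drug and of the knockdown cannot be told apart here.

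Alcohol dehydrogenases are zinc enzymes that oxidize alcohols to aldehydes or ketones with NAD as the acceptor. ADH1A, ADH1B and ADH1C encode the alpha, beta and gamma subunits of class I, the enzymes of hepatocytes that clear most ingested ethanol and also oxidize retinol. ADH4 is the class II enzyme of the liver, ADH5 is the class III enzyme found in almost every tissue, which oxidizes the glutathione adduct of formaldehyde, ADH6 is the class V gene, and ADH7 is the class IV enzyme of the stomach and upper digestive epithelium. MTR4 is an RNA helicase that feeds nuclear RNA to the exosome for processing or decay.

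On GRCh38 the cluster spans 364.4 kb, from 99070978 to 99435342 on chromosome 4, and every member lies on the minus strand. In order of position they are ADH5 (99070978 to 99088788), ADH4 (99123658 to 99144297), ADH6 (99202639 to 99219246), ADH1A (99276369 to 99290985), ADH1B (99304971 to 99321401), ADH1C (99336497 to 99352746) and ADH7 (99412263 to 99435342). The 3 class I genes are therefore neighbours, with no other member between them.

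The promoters of the class I genes, and those of ADH4 and ADH5 as examples that differ from them in sequence, are shown from 250 bases before to 50 bases after the start of each gene, 5′ to 3′ on the strand of the gene. They come from RefSeq on GRCh38.p14, at chr4:99290936-99291235 (ADH1A), chr4:99321352-99321651 (ADH1B), chr4:99352697-99352996 (ADH1C), chr4:99144248-99144547 (ADH4) and chr4:99088739-99089038 (ADH5). Capitals mark matches, on either strand, to 4 short motifs. They are the E-box CACGTG, the box known by its letters CCAAT, the TATA-like run TATAAA, and the C/EBP-like site TTGCNNAA. Matches were allowed to overlap.
ADH1A: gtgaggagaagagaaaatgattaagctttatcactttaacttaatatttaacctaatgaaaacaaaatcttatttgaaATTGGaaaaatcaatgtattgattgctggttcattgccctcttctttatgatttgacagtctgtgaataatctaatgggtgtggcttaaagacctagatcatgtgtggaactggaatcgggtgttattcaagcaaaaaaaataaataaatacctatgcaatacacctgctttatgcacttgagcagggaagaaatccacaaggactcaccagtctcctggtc
ADH1B: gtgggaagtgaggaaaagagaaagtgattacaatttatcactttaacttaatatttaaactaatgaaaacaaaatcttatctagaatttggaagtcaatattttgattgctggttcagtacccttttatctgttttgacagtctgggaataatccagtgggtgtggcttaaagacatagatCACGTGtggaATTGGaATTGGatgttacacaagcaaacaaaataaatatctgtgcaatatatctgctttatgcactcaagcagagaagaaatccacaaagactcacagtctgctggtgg
ADH1C: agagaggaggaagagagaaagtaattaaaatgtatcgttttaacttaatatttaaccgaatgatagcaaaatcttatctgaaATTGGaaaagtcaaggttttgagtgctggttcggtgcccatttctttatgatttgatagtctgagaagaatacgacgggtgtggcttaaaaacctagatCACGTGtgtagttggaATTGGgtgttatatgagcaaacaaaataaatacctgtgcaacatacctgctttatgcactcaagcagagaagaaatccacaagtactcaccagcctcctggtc
ADH4: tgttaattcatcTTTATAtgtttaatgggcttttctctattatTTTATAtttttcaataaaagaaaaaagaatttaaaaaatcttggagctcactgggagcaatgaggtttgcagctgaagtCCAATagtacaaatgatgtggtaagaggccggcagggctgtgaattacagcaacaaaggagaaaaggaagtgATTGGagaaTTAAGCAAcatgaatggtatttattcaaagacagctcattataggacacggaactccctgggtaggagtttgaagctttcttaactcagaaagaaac
ADH5: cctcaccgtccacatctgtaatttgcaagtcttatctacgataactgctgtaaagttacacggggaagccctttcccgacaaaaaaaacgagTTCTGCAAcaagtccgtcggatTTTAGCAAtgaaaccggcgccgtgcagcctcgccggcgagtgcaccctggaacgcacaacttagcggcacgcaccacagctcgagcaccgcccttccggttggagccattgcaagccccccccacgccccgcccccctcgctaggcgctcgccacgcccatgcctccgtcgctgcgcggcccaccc

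The class I promoters were alike, with 81.9% of aligned bases identical between ADH1A and ADH1B, 82.2% between ADH1A and ADH1C, and 81.3% between ADH1B and ADH1C. Identity between promoters in all other pairs of members was 38.6% to 49.8%. An E-box lay 69 bases before the gene start in ADH1B and in ADH1C, and the letters occurred in 7.26% of 35116 RefSeq promoters of the same length. The letters CACGTG were not in this window of ADH1A, and the bases aligned with them were CATGTG, 73 bases before the start, which is the change C3T counted from the first base of the motif with the base of ADH1B or ADH1C written first. CCAAT, present in 34.6% of promoters, was found in all 3 class I promoters and in that of ADH4. The ADH4 promoter had matches to TATAAA (11.5% of promoters) and TTGCNNAA (10.5%), of which no match lay in a class I promoter. The ADH5 promoter had a GC content of 61.3% with 29 CpG dinucleotides, whereas the other 6 members had 35.0% to 39.0% GC with 1 to 6 CpG, and the medians over all promoters were 58.7% and 14. A match is only a run of letters, and binding was not measured.

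The libraries had 60686786 to 72708682 reads on genes. MTR4 itself (MTREX in the annotation) had 72.2, 87.4 and 74.4 CPM in control 1 to 3 and 44.6, 48.8 and 44.1 in MTR4 KD 1 to 3, with a log2 fold change of −0.77 ± 0.0897 (SE, adjusted p = 0.00641 by edgeR's quasi-likelihood test). CPM is the count per 1000000 reads of the TMM-adjusted library size, and 18075 genes passed the filter on low counts. A pair of library batches was read from the share of reads with a non-unique alignment, 34.7% to 37.5% in control 1, control 3 and MTR4 KD 3, and 14.8% to 18.2% in control 2, MTR4 KD 1 and MTR4 KD 2. These are called the high-multimap and the low-multimap batch. Markers of hepatocyte-derived cells were all detected, with 8 of 8 above 0 and a summed level of 23707 to 25158 CPM in the control and 23780 to 25623 CPM in the MTR4 KD libraries. Markers of fibroblasts and stellate cells (5 of 5 matched) summed to 8.14 to 14.5 CPM in control and 6.44 to 11.3 CPM in MTR4 KD libraries. Among them COL1A2 was uneven, at 0.454, 4.67 and 0.497 CPM in control 1 to 3 and 0.0326 to 1.03 CPM in MTR4 KD libraries. Markers of endothelial cells (2 of 3 matched) summed to 0.0995 to 0.359 and 0.244 to 0.538 CPM. Leukocyte markers (4 of 4 matched) summed to 28.0 to 32.6 CPM in the control and 24.5 to 26.7 CPM in the MTR4 KD libraries, mostly from LYZ. PTPRC was at 1.81 CPM in control 3 and 0.538 CPM in MTR4 KD 3, and at most 0.130 CPM in the other libraries. CD3E was at 0.514 and 0.408 CPM in control 3 and MTR4 KD 3, and CD68 was at 0 in the control libraries.

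The class I genes were the members that differed most between the groups. ADH1A was 2.78-fold, ADH1B 3.95-fold and ADH1C 2.18-fold higher in MTR4 KD than in control, and in each gene every MTR4 KD library lay above every control library. ADH1A, the alpha subunit, was at 31.2, 31.5 and 28.7 CPM in control 1 to 3 and at 78.5, 88.5 and 87.1 CPM in MTR4 KD 1 to 3. The group means were 30.5 ± 1.57 and 84.7 ± 5.41 CPM (SD, n = 3), and the log2 fold change was 1.47 ± 0.0738 (SE). These values came from 1730 to 2283 reads per control library and 4819 to 5913 reads per MTR4 KD library, so ADH1A was the best counted of the class I genes. In a bulk culture, more cells that transcribe a gene and more RNA per cell cannot be told apart.

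ADH1B, the beta subunit, was at 1.46, 1.91 and 1.09 CPM in control 1 to 3 and at 5.93, 6.08 and 5.69 CPM in MTR4 KD 1 to 3. It was thus the lowest class I gene in every library and had the largest log2 fold change of the 6 members tested, 1.98 ± 0.200 (SE), with means of 1.49 ± 0.406 and 5.90 ± 0.195 CPM (SD, n = 3). Its control values rest on 90, 138 and 66 reads, and its standard error was larger than those of ADH1A and ADH1C. ADH1C, the gamma subunit, was at 10.9, 11.1 and 9.75 CPM in control 1 to 3 and at 21.3, 23.7 and 24.5 CPM in MTR4 KD 1 to 3. Its means were 10.6 ± 0.755 and 23.2 ± 1.68 CPM (SD, n = 3), and its log2 fold change of 1.12 ± 0.0930 (SE) was the smallest of the class I genes.

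Of the 7 members, 6 passed the filter on low counts and were tested. 3 of them (ADH1A, ADH1B and ADH1C) were raised past an adjusted p of 0.05 and a fold change of 2, a call made for 0.321% of all genes tested, and the same 3 were past the adjusted p alone, against 3.6% of genes in either direction. Since these calls chose the family, nothing is read from the counts. In 4 members (the class I genes and ADH6) every MTR4 KD library was above every control library, as in 12.1% of all genes tested, and in 1 member (ADH4) every MTR4 KD library was below every control library, as in 12.6% of genes. Just inside the choice lay ADH1C, with a log2 fold change of 1.12, and just outside it lay ADH6, with 0.25.

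**Figure D1:**
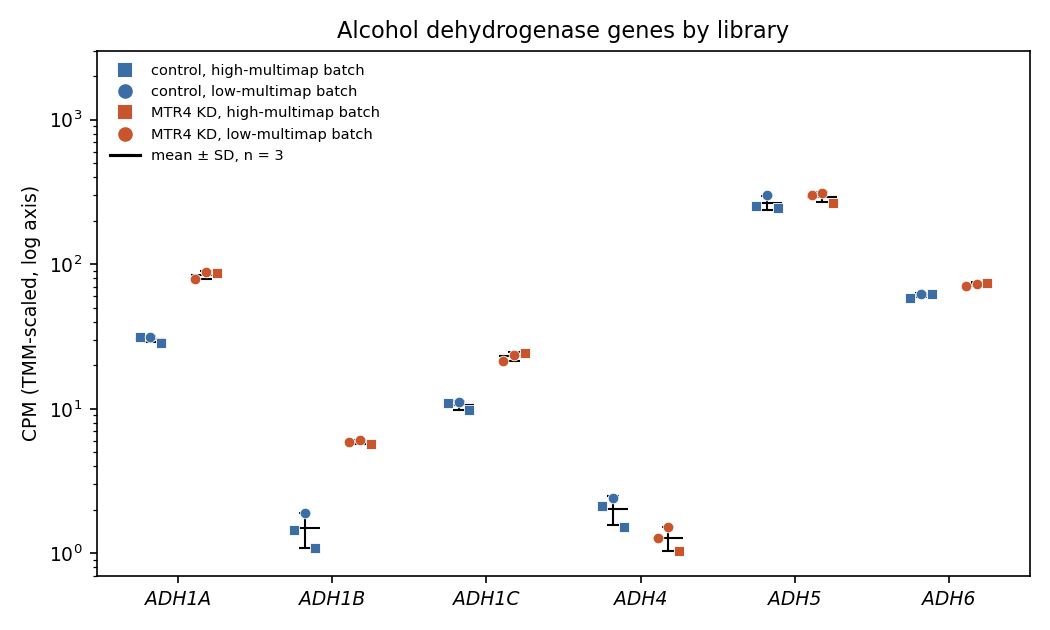
CPM (log axis) of the 6 tested ADH genes, with 1 point per library, color for the group, a square for the high-multimap and a circle for the low-multimap batch, and black lines for the mean ± SD (n = 3). The MTR4 KD points of ADH1A, ADH1B and ADH1C sit above all control points, those of ADH4 just below them, and those of ADH5 among them. ADH7 is not drawn.

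The class I genes are near-identical copies, which bears on how reads could be divided among them. Their coding sequences are 1128 bases each, in transcripts of 9 exons, and 94.9% of bases were identical between ADH1A and ADH1B, 93.8% between ADH1A and ADH1C, and 95.6% between ADH1B and ADH1C. Every other pair of members was 65.2% to 72.4% identical. The annotated ADH1B transcript is 4067 bases long with 2869 bases after the stop codon, whereas those of ADH1A and ADH1C are 1454 bases long with 255 bases after it. Most of the ADH1B transcript therefore lies outside the part that resembles the other class I genes.

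Windows of each transcript that also occur, letter for letter, in another gene were counted. Where that gene is a copy elsewhere in the genome, a read of that length cannot be placed. With windows of 50 bases the shared ones made up 19.5% of ADH1A, 9.46% of ADH1B and 18.6% of ADH1C. With windows of 100 bases the shares were 3.62%, 1.92% and 5.24%, and with 150 bases they were 0%, 0.536% and 1.61%. In ADH1A, ADH1B and ADH1C, windows shared within class I lay almost wholly in the coding sequence, where 18.8% of the 50-base windows of ADH1A, 33.6% of those of ADH1B and 23.9% of those of ADH1C were shared. Outside it the shares were 1.53%, 0.0681% and 0.920%. The ADH1A shares include windows in common with the lncRNA ENSG00000246090, which overlaps ADH1A on the opposite strand. Such a window need not lie at another place in the genome. Of the 49 windows of 100 bases that ADH1A shared, 5 were shared with ADH1B and 0 with ADH1C. Of ADH5, 13.8% of 50-base windows and 1.14% of 100-base windows were shared, among others with its processed copies ADH5P2 to ADH5P5, and none with a class I gene. ADH4 shared 0.358% of 50-base windows, and ADH6 and ADH7 shared none. The read length and the strand setting of the counting are not given in the sources used here.

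When the reads counted on the 3 class I genes were summed before the fit, the sum was 43.7, 44.6 and 39.5 CPM in control 1 to 3 and 105.7, 118.3 and 117.3 CPM in MTR4 KD 1 to 3. The log2 fold change of the sum was 1.42 ± 0.0769 (SE), or 2.67-fold, with means of 42.6 ± 2.69 and 113.8 ± 7.0 CPM (SD, n = 3). Since the rise of these genes chose the family, the difference of the sum beside its spread is a description only.

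The division of class I reads among the genes differed less than their total. ADH1A took 71.6% ± 0.922 of class I reads in control and 74.5% ± 0.302 in MTR4 KD libraries (SD, n = 3), ADH1B 3.46% ± 0.760 and 5.20% ± 0.383, and ADH1C 24.9% ± 0.218 and 20.3% ± 0.452. For each gene the ranges of the groups did not overlap. For ADH1B, the gene closest to overlap, the highest control share was 4.28% (95% Wilson interval 3.63% to 5.03%, 138 of 3228 reads in control 2), and the lowest MTR4 KD share was 4.85% (4.38% to 5.37%, 349 of 7191 reads in MTR4 KD 3). Those intervals overlap, and they cover counting error only. For ADH1C the lowest control share was 24.7% (23.0% to 26.4%) and the highest MTR4 KD share 20.9% (19.9% to 21.8%), and these intervals did not overlap. Within the high-multimap batch the ADH1C share was 24.9% in control and 20.9% in MTR4 KD, and within the other batch it was 25.0% and 20.1%. Per kilobase of transcript, ADH1A held 73.3% and 77.0%, ADH1B 1.27% and 1.92%, and ADH1C 25.5% and 21.0% of the class I level in control and MTR4 KD.

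ADH4, the class II enzyme, went the other way. It was at 2.12, 2.43 and 1.53 CPM in control 1 to 3 and at 1.27, 1.51 and 1.04 CPM in MTR4 KD 1 to 3, with means of 2.03 ± 0.460 and 1.28 ± 0.234 CPM (SD, n = 3) and a log2 fold change of −0.67 ± 0.235 (SE). The groups were separated only narrowly, by the 1.53 CPM of control 3 and the 1.51 CPM of MTR4 KD 2. Its counts were low, from 64 to 176 reads per library.

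ADH5, the class III enzyme, had the highest level of the family, at 253.5, 300.3 and 245.2 CPM in control 1 to 3 and at 299.8, 309.2 and 265.4 CPM in MTR4 KD 1 to 3. The groups overlapped, with means of 266.3 ± 29.7 and 291.5 ± 23.1 CPM (SD, n = 3), and the log2 fold change of 0.13 ± 0.0976 (SE) was small beside that spread. ADH6, the class V gene, was at 58.7, 62.7 and 62.1 CPM in control 1 to 3 and at 70.5, 72.8 and 74.7 CPM in MTR4 KD 1 to 3. These groups did not overlap, with means of 61.1 ± 2.15 and 72.7 ± 2.11 CPM (SD, n = 3), and the log2 fold change of 0.25 ± 0.0586 (SE) corresponds to 1.19-fold. ADH7, the stomach enzyme, had 6 reads in control 1 and 0 reads in the other 5 libraries, where a count of 0 allows at most 3 reads or 0.0414 to 0.0497 CPM. It was not tested, and no difference could be detected at this depth.

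Levels of different genes can be compared only per length, so the CPM was divided by the kilobases of the annotated transcript. In control libraries the order was ADH5 at 100.4 ± 11.2, ADH6 at 21.8 ± 0.767, ADH1A at 21.0 ± 1.08, ADH1C at 7.30 ± 0.519, ADH4 at 1.01 ± 0.230 and ADH1B at 0.366 ± 0.0999 CPM per kilobase (SD, n = 3). ADH6 and ADH1A did not differ beyond their spread there, with ranges of 20.9 to 22.4 and 19.7 to 21.7. In MTR4 KD libraries ADH5 was again the highest at 109.9 ± 8.70, followed by ADH1A at 58.3 ± 3.72, ADH6 at 25.9 ± 0.753, ADH1C at 15.9 ± 1.16, ADH1B at 1.45 ± 0.0479 and ADH4 at 0.637 ± 0.117 CPM per kilobase. ADH1A thus stood clear of ADH6, with ranges of 54.0 to 60.9 and 25.2 to 26.7, and ADH1B stood above ADH4, the reverse of their order in control. The place of ADH1B depends on its annotated length of 4067 bases, of which 2869 follow the stop codon. Whether these cells make that full length was not tested. Reads with a non-unique alignment were not counted, and the levels were not corrected for this. Of the 50-base coding windows, 18.8% in ADH1A and 0% in ADH6 were shared with a class I gene.

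Summed over the family, the level was 151.9 ± 13.0 CPM per kilobase in control and 212.1 ± 8.77 in MTR4 KD libraries (SD, n = 3). The class I share of this sum was 18.9% ± 1.05 in control, and it was 33.5%, 35.4% and 38.0% in MTR4 KD 1 to 3, with no overlap between the groups. The ADH5 share was 66.0% ± 1.68 in control and 51.8% ± 2.77 in MTR4 KD libraries, although the ADH5 level itself overlapped between the groups. The ADH6 share was 14.4% ± 1.10 and 12.2% ± 0.660, although the ADH6 level was higher in every MTR4 KD library than in every control library. A larger class I share lowers the other shares, whatever their levels. Since the rise of the class I genes chose the family, the shares are a description only.

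**Figure D2:**
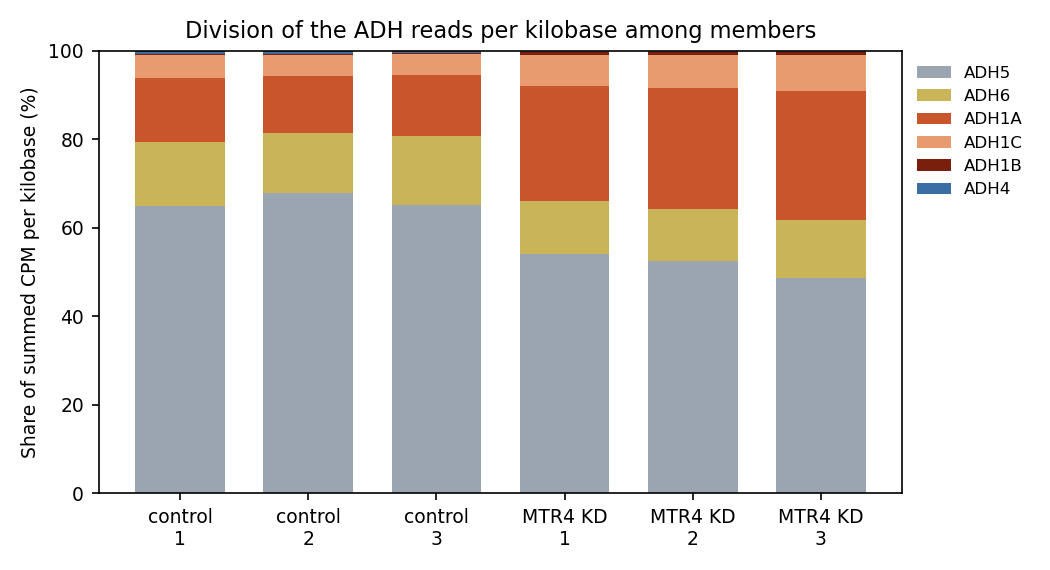
Share (percent) of each member in the summed CPM per kilobase of the family, as stacked bars for the 6 libraries, ADH7 left out of the colors since it held at most 0.0312%. ADH5 fills on average 66.0% of the control bars and 51.8% of the MTR4 KD bars, and the 3 class I bands together fill 18.9% and 35.7%.

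Each batch held both conditions, so the differences could be taken within it. In the high-multimap batch (2 control libraries, 1 MTR4 KD library) the log2 difference was 1.54 for ADH1A, 2.16 for ADH1B and 1.24 for ADH1C. In the low-multimap batch (1 control library, 2 MTR4 KD libraries) it was 1.40, 1.65 and 1.01. All 3 class I genes, chosen by their rise in these same libraries, were over a fold change of 2 within each batch. For each of them the difference was smaller in the low-multimap batch. ADH4 differed by −0.78 and −0.81, ADH6 by 0.31 and 0.19, and ADH5 by 0.09 and 0.02 on the log2 scale. In a fit with batch and condition the log2 fold change was 1.47 for ADH1A, 1.90 for ADH1B, 1.13 for ADH1C, −0.80 for ADH4, 0.05 for ADH5 and 0.25 for ADH6.

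**Figure D3:**
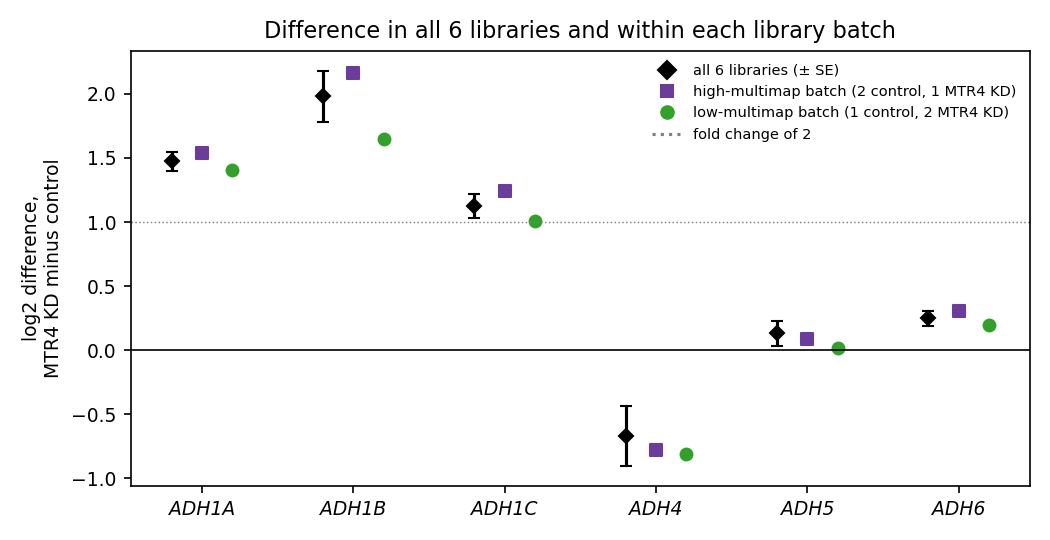
Log2 difference, MTR4 KD minus control, of each tested member over all 6 libraries (diamonds ± SE) and within the high-multimap (squares) and low-multimap (circles) batch. Class I genes lie on or above the dotted line of a fold change of 2 in all 3 estimates, at 1.01 for the lowest, and ADH4 is below 0 in all of them.

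The batch itself was not used in choosing the family and was tested, with condition as a covariate, in edgeR's quasi-likelihood fit. At an adjusted p of 0.05, 1 of the 6 tested members passed, where 31.5% of all genes did. That member was ADH5, lower in the high-multimap batch, with a difference of −0.23 ± 0.0412 on the log2 scale (SE, adjusted p = 0.000760), with 2 control libraries of that batch at 253.5 and 245.2 CPM and the third control library at 300.3 CPM. Over 11 alternatives its adjusted p ran from 2.51e-06 to 0.624 and was under the threshold in 10. The log2 batch difference was −0.00 ± 0.0599 for ADH1A (adjusted p = 0.985), −0.28 ± 0.150 for ADH1B (adjusted p = 0.183) and 0.02 ± 0.0797 for ADH1C (adjusted p = 0.909). It was −0.41 ± 0.201 for ADH4 (adjusted p = 0.142) and 0.00 ± 0.0473 for ADH6 (adjusted p = 0.968).

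Genes beside the cluster gave a view of whether the difference ran past it. Of the 5 protein-coding genes on each side, 6 were tested and 1 passed an adjusted p of 0.05, where 3.6% of all genes tested did in either direction. That was MTTP, which loads lipid onto apolipoprotein B, 128.8 kb beyond ADH7. It fell from 98.5 ± 3.37 to 75.9 ± 2.60 CPM (SD, n = 3), with a log2 fold change of −0.38 ± 0.0598 (SE, adjusted p = 0.0191). METAP1, a methionine aminopeptidase gene 8.17 kb from ADH5, was at −0.02 on the log2 scale (adjusted p = 0.868), and EIF4E, the cap-binding translation factor, at −0.07 (adjusted p = 0.549). RAP1GDS1, TSPAN5 and TRMT10A were at 0.15, −0.17 and 0.19 (adjusted p = 0.302, 0.265 and 0.332). STPG2, C4orf17, C4orf54 and DAPP1 had too few reads to test. Inside the cluster, the lncRNA ENSG00000246090 runs on the plus strand from 99088857 to 99301356, across ADH4, ADH6 and ADH1A. It was at 1.32 ± 0.283 CPM in control and 1.85 ± 0.104 CPM in MTR4 KD libraries, with a log2 fold change of 0.48 ± 0.204 (SE, adjusted p = 0.263). Of the members it crosses, ADH1A shared exact windows with it at lengths of 50 to 100 bases and none at 150 bases, and ADH4 and ADH6 shared none. The strand setting of the counting is not known for reads in the shared windows. The pseudogene PCNAP1 had at most 1 read in a library.

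**Figure D4:**
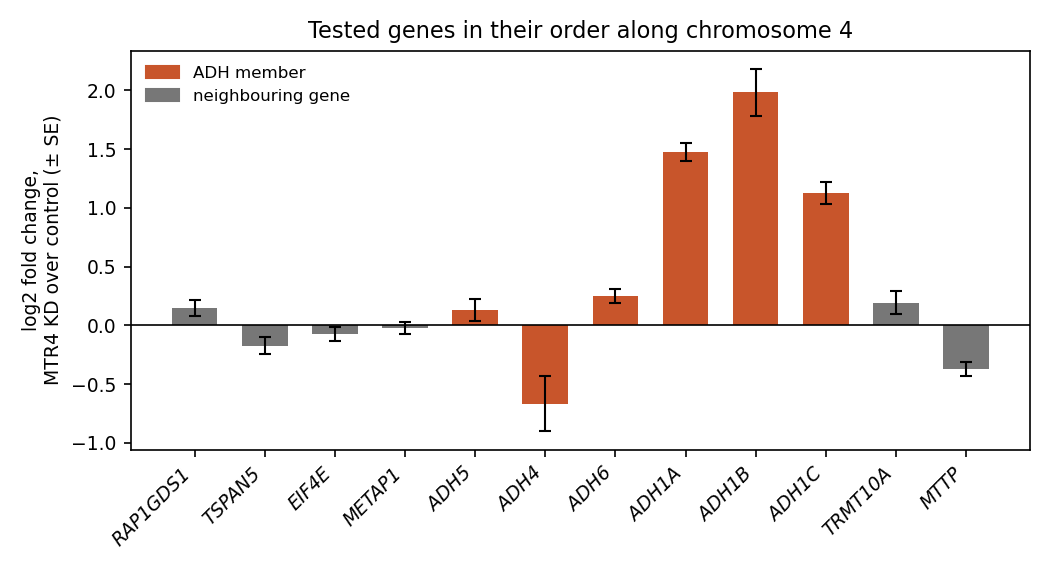
Log2 fold change of MTR4 KD over control (bars, ± SE) for the tested genes in their order along chromosome 4, ADH members in orange and neighbouring genes in grey. The 3 tall bars are the adjacent ADH1A, ADH1B and ADH1C, at 1.47, 1.98 and 1.12, and the neighbouring genes lie between −0.38 and 0.19.

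Genes related to alcohol dehydrogenases in pathway, superfamily or transcription were examined next. Over 5 lists, 56 of 61 were tested, of which 6 were raised and 1 was lowered at an adjusted p of 0.05, while 1.48% of all 18075 genes tested were raised and 2.12% lowered. RDH8 was the only gene among these 7 calls that was also past a fold change of 2. Once batch was a term of the fit, 20 list genes were raised and 7 lowered, beside 9.43% and 10.8% of all genes. The lists are described by their counts and medians.

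Aldehyde dehydrogenases take the aldehyde made by ADH to the acid. Of 19 listed, 17 were tested, 1 rose and none fell, with a median log2 fold change of 0.12 against 0.01 for all genes, and in the fit that held the batch 6 rose and 2 fell. The gene that rose was ALDH5A1, succinate semialdehyde dehydrogenase, with a log2 fold change of 0.35 ± 0.0695 (SE, adjusted p = 0.0425). ALDH2, the mitochondrial enzyme that oxidizes acetaldehyde, was at 87.9 ± 8.91 CPM in control and 103.8 ± 13.7 CPM in MTR4 KD libraries, groups that overlapped (log2 fold change 0.24, adjusted p = 0.324, and 0.14 with an adjusted p of 0.0451 in the fit that held the batch). ALDH1A1, a cytosolic retinal dehydrogenase, was at 4145 ± 254.1 and 4537 ± 284.7 CPM, also with overlap (0.13, adjusted p = 0.409), and ALDH1B1 was at 0.12 (adjusted p = 0.567).

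Among 7 other enzymes of ethanol, acetate and formaldehyde, 6 were tested and none passed the adjusted p, although 3 rose in the fit that held the batch. Catalase (CAT), which can oxidize ethanol in peroxisomes, was at 110.4 ± 3.82 CPM in control and 134.1 ± 3.8 CPM in MTR4 KD libraries, without overlap, and its log2 fold change of 0.28 ± 0.0589 (SE) had an adjusted p of 0.0505, or 0.000137 in the fit that held the batch. ESD, which completes the formaldehyde pathway after ADH5, was at −0.02 (adjusted p = 0.945). CYP2E1, the microsomal ethanol oxidase, was too low to test, at 0.139 ± 0.0680 and 0.101 ± 0.0124 CPM.

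Of 14 retinol and retinal oxidoreductases, 13 were tested, 3 rose and 1 fell, with a median of 0.14, and in the fit that held the batch 5 rose and 2 fell. RDH8 went from 1.13 ± 0.0788 to 2.62 ± 0.363 CPM with a log2 fold change of 1.21 ± 0.172 (SE, adjusted p = 0.0128), RDH5, a retinol dehydrogenase, by 0.81 ± 0.144 (SE, adjusted p = 0.0296), and HSD17B6, an oxidoreductase of retinol and steroids, by 0.94 ± 0.149 (SE, adjusted p = 0.0189). AKR1B1, aldose reductase, fell by 0.32 on the log2 scale (SE 0.0614, adjusted p = 0.0396). RDH10, which makes retinal for retinoic acid synthesis, DHRS3, which reverses it, and RDH11 had log2 fold changes of 0.14, 0.03 and 0.12 (adjusted p = 0.316, 0.929 and 0.492).

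Other medium-chain dehydrogenases belong to the same protein superfamily as ADH. Of 11 listed, 10 were matched and tested, 2 rose and none fell, with a median of −0.01, and in the fit that held the batch 2 rose and 1, CRYZ, fell. VAT1L rose by 0.94 ± 0.115 (SE, adjusted p = 0.00758) and TP53I3, a quinone oxidoreductase, by 0.43 ± 0.0728 (SE, adjusted p = 0.0240) on the log2 scale. SORD (sorbitol dehydrogenase), CRYZ and PTGR1 were at 0.00, −0.17 and −0.04 (adjusted p = 0.995, 0.208 and 0.793). Of 10 liver transcription factors known at ADH promoters, all were tested and none passed, with a median of 0.05. CEBPA was at 0.08 and DBP at 0.06 (adjusted p = 0.957 and 0.902). In the fit that held the batch, 4 of the 10 factors rose and 2 fell. CEBPA and DBP were among those that rose there, with log2 fold changes of 0.65 (adjusted p = 5.44e-05) and 0.23 (adjusted p = 0.0112). Within the high-multimap and the low-multimap batch CEBPA differed by 0.57 and 0.76.

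Hepatocyte markers went in both directions, 5 of 8 higher and 3 lower. At an adjusted p of 0.05, 3 rose, ALB by 0.29 (adjusted p = 0.0480), APOA1 by 0.52 (adjusted p = 0.00921) and TTR by 0.88 (adjusted p = 0.00693) on the log2 scale, and none fell. Over all genes tested 1.48% were raised and 2.12% lowered at that threshold. In the fit that held the batch 4 of the 8 rose and none fell, beside 9.43% and 10.8% of all genes. FGB was the marker added there, at 0.25 in both fits (adjusted p = 0.0860, and 0.00217 in the fit that held the batch). Its groups did not overlap. AFP, SERPINA1 and TF were at −0.12, −0.21 and −0.08 (adjusted p = 0.334, 0.347 and 0.535), and the summed level of the list overlapped between the groups. Their part in the class I difference was not tested.

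The genes whose pattern over the 6 libraries was most like that of class I were found by Pearson's r of log2 CPM. Each gene was compared with the mean of the centred class I values. The 12031 genes compared had a symbol and a mean of at least 100 reads. The ADH members were left out, and so were all genes of a single chromosome, which is not that of the cluster. Genes of the remaining chromosomes were kept. The ranking and the count below therefore cover only part of the genes at that depth. The 5 closest were DGLUCY, which breaks down D-glutamate (r = 0.999), the lncRNA LINC00261 (0.998), the thioesterase gene ACOT13 (0.998), the RNA-binding protein gene CELF1 (0.998) and OTC, an enzyme of the urea cycle (0.997). They differed in size, as OTC went from 15.2 ± 1.15 to 26.4 ± 0.239 CPM, a log2 fold change of 0.79, and CELF1 from 155.2 ± 1.41 to 164.6 ± 0.538 CPM, a log2 fold change of 0.08. An r of at least 0.95 was reached by 281 of the 12031 genes compared. Within the family the r was 0.95 for ADH6, 0.58 for ADH5 and −0.71 for ADH4. The libraries form 2 groups and a pair of batches, so these values describe the pattern and carry no test.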

How the data were processed

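RNA-seq libraries of PLC/PRF5 cells (3 control, 3 MTR4 KD, grouped by their labels) were analysed from the raw count per gene that the authors deposited, without normalization. The submitters' processing notes name HISAT2 2.1.0, HTSeq, DESeq2 and GRCh38. Reads not assigned to a gene (37.7% to 49.3%) were left out of library sizes. Symbols came from GENCODE, which held 56959 of 60675 genes, positions and promoters from RefSeq. edgeR 4.0.16 in R 4.3.3 (filterByExpr, minimum count 10, TMM, quasi-likelihood test, Benjamini-Hochberg over 18075 genes) compared the groups with condition only. A call needed an adjusted p under 0.05 and, where said, a fold change over 2. The fit was tested on simulated counts. Members and lists were chosen with earlier results of these data known. Named were all members, 5 protein-coding neighbours on each side, genes inside the cluster, up to 4 called and 3 defining genes per list, and the 5 genes most like class I. The values of 1 gene that this rule covers are not reported here. Alternatives were other scalings, filters, DESeq2 1.42.0, limma-voom (limma 3.58.1), the replicate block, the library batch, summed class I counts and each library left out. Replicates of a group differed by more than sampling noise. Chi-square per degree of freedom was 4.68 and 8.15 for pairs within a library batch, and 85.7 to 95.9 for pairs across the batches.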

Additional observations from a re-analysis of the deposited data

How the results depend on the processing

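The direction of every tested member's log2 fold change was the same under all alternatives run, and ADH1A, ADH1B and ADH1C stayed over a fold change of 2 in 14 of 14 refits, at 1.43 to 1.53, 1.81 to 2.20 and 1.07 to 1.19. For these class I genes the refits reuse the libraries and the contrast that chose them, so they show only the dependence on processing. Values that moved by more than their spread came from within the batches, at 1.65 for ADH1B (low-multimap), 1.24 (high) and 1.01 (low) for ADH1C, and 0.31 and 0.19 for ADH6, where 1 or 2 libraries stand for a group. Per kilobase the class I shares were 73.3% and 77.0% for ADH1A, 1.27% and 1.92% for ADH1B and 25.5% and 21.0% for ADH1C in control and MTR4 KD. The genes past both thresholds over the whole table, 150 by edgeR, were 227 by DESeq2's Wald test and 347 once the batch was a term, and 73 to 180 with 1 library left out (73 without control 1 or MTR4 KD 2, 75 without control 3, 76 without MTR4 KD 1). In the related lists the genes raised, 6 by edgeR, were 12 by DESeq2's Wald test, 20 with the batch term and 0 to 8 with 1 library left out (0 without control 1 or MTR4 KD 2, 1 without control 3, 2 without MTR4 KD 1). The genes lowered there, 1 by edgeR, were 0 with total counts, 7 with the batch term and 0 with any 1 library left out. The cause of these changes was not tested. Samples with the same replicate number had correlated deviations of −0.22, 0.30 and 0.33, and not every one correlated best with its own number, so the numbers were not taken as pairs. The replicate block changed the batch difference of ADH5 to −0.16 (adjusted p = 0.624) and no other call of a member. ADH1B and ADH4 rest on 64 to 406 reads per library and ADH7 on at most 6, so their values are the least precise.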
